A study of Homo sapiens with 6 samples.

Results

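The genes described here are 36 genes of ceramide and sphingolipid metabolism, taken by gene name from the 57819 genes of the deposited table. The list was drawn up with earlier results of these data known. All 36 names were found, and 31 of the genes had enough reads to be tested. RNA came from IMR90 cells, which are human lung fibroblasts, carrying ER:Ras. This is a Ras oncogene joined to an estrogen receptor domain that 4-hydroxytamoxifen (4OHT) switches on. Every library was from cells given 200 nM 4OHT for 3 days, so Ras was switched on in controls and knockdowns alike, in a study of senescent cells. The groups were cells with a scrambled siRNA (siSCR, 3 libraries) and cells in which an siRNA lowered sin-lncRNA, a long noncoding RNA (3 libraries). The comparison addressed what differs in such cells when this lncRNA is lowered. All knockdown libraries carry the same siRNA name. Effects of losing the lncRNA and other effects of that siRNA therefore cannot be told apart. Senescence of these cells was not tested here. The labels do not say that replicates were separate cultures, so p-values measure the spread between libraries, which may be technical. In these bulk samples, fewer cells of a type and less RNA per cell cannot be told apart.

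Sphingolipids are membrane lipids built on a sphingoid base. Serine palmitoyltransferase makes the first intermediate in the endoplasmic reticulum, ceramide synthases attach a fatty acid, and a desaturase completes ceramide. Ceramide is then turned into sphingomyelin, glucosylceramide and larger glycosphingolipids, or ceramide 1-phosphate, or is broken down by ceramidases to sphingosine. Sphingosine kinases turn sphingosine into sphingosine 1-phosphate (S1P), which acts on cell surface receptors and is removed by a lyase or by phosphatases. Ceramide is known for growth arrest and cell death, and S1P for survival and migration.

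Library totals ran from 30271192 to 50913672 reads in genes in controls and from 22117324 to 27882280 in knockdowns, so all 3 knockdown libraries had fewer reads than any control. Values below are RPM, reads scaled to library size, recovered from the deposited log2 values without the offset. Where a gene had 0 reads, its level could still be as high as 3 reads, which is 0.0596 to 0.134 RPM by library and covers counting error only. The targeted lncRNA, listed as RP4-530I15.6, was at 3.70, 4.73 and 4.09 RPM in controls and 0.493, 0.640 and 0.534 in knockdowns. Knockdowns held 13.3% of the control mean (log2 fold change -2.86, SE 0.18, limma adjusted p = 7.9e-07). The 9 fibroblast markers were present in every library, with summed levels of 40133 to 41957 RPM in controls and 40161 to 41615 in knockdowns. FN1 made up most of that sum, at means of 25150 and 29810 RPM, and single markers differed in both directions. COL1A1 was at means of 6617 RPM in controls and 3599 in knockdowns, COL1A2 at 3695 and 2167, VIM at 3197 and 2430 and PDGFRB at 308.1 and 200.1. COL3A1 was at 1555 and 2015 and LUM at 29.1 and 46.5. Their part in the members' results was not tested. Summed epithelial markers were at 0.314 to 0.533 RPM over all libraries (4 genes, KRT5 at 0 in each), and immune markers at 0.128 to 0.249 RPM (3 genes).

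Of the 31 tested members, 13 changed in limma at a Benjamini-Hochberg adjusted p under 0.05, with 4 higher and 9 lower in knockdowns. That is 41.9% of them, where 41.0% of all 19048 genes tested and 48.6% of the protein-coding genes were called. By direction, 17.5% of all genes were called higher and 23.5% lower. The members' share was thus close to the background. Counts by role below are of few genes each and stand beside the same background shares. Their median log2 fold change was -0.03, and that of all genes was -0.04. What set members apart from each other was size: ACER2 rose and CERS1 fell by more than 1 on the log2 scale, as did 2.95% of all genes in either direction. A further 5 members changed by at least 0.5, namely UGCG upward and B4GALT6, S1PR1, CERK and SMPD4 downward, for 7 in all beside 13.9% of all genes. The libraries of the groups did not overlap for 15 members (4 higher, 11 lower), beside 51.1% of all genes, 22.6% higher and 28.5% lower.

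**Figure D1:**
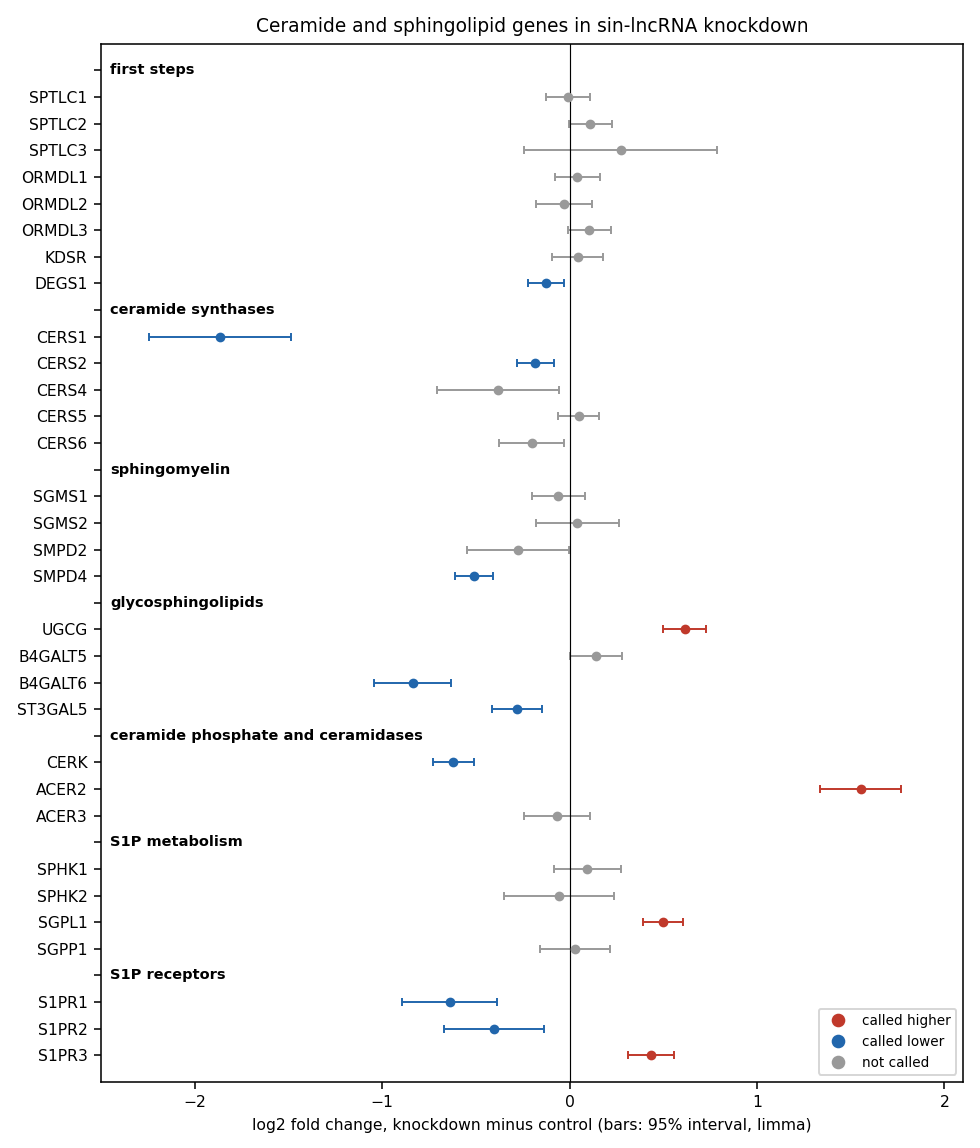
Log2 fold change (knockdown minus control, horizontal axis) of the 31 tested members, grouped by role, with 95% intervals from limma. ACER2 at 1.55 and CERS1 at -1.87 lie farthest from 0, and 7 of the 8 tested genes listed under first steps were not called.

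The genes listed under first steps of synthesis were nearly flat. This list also holds the ORMDL genes and DEGS1, the desaturase that completes ceramide. Of 8 tested genes, 1 fell (DEGS1) and 0 rose, or 12.5% called beside 41.0% of all genes tested. Their median log2 fold change was 0.04. SPTLC1, a catalytic-core subunit of serine palmitoyltransferase, was at 51.9, 56.9 and 55.7 RPM in controls and 55.9, 53.1 and 54.3 in knockdowns. The groups overlapped, and the log2 fold change was -0.01 with a 95% interval of -0.12 to 0.11 (limma). SPTLC2, the partner subunit, had a log2 fold change of 0.11 (interval -0.003 to 0.23, limma adjusted p = 0.11). It passed in 1 of the 17 alternative fits, with quantile normalization (0.15, adjusted p = 0.046 in limma). SPTLC3, an alternative to SPTLC2 that makes other chain lengths, was low, with 16 to 28 reads per library. Counted per kilobase of annotated exon (RPKM), it made up 0.40% of the large-subunit RNA in controls and 0.47% in knockdowns.

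ORMDL1, ORMDL2 and ORMDL3 encode membrane proteins that restrain serine palmitoyltransferase. None of these 3 genes was called, with log2 fold changes of 0.04, -0.03 and 0.11 in limma (adjusted p = 0.57, 0.77 and 0.13). In 1 of the 17 alternative fits ORMDL3 passed, with the GC and length trend removed (0.15, adjusted p = 0.017 in limma). ORMDL3 was the most abundant per length, at 55.6% ± 1.0 of ORMDL RPKM in controls and 57.1% ± 1.6 in knockdowns (SD, n = 3). ORMDL2 shares 920 of its 2810 exon bases with DNAJC14 on the opposite strand, and the strand setting of the counting is not given in the sources used here, so its level is uncertain. KDSR, the reductase of the second step, had a log2 fold change of 0.04 (interval -0.09 to 0.18, limma).

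DEGS1, the desaturase that makes ceramide from dihydroceramide, was the most abundant member per length, at 63.6 ± 2.2 RPKM in controls and 58.3 ± 1.6 in knockdowns (SD, n = 3). In RPM it was at 153.8, 161.6 and 164.5 in controls and 143.3, 151.1 and 145.6 in knockdowns. Controls lay above knockdowns without overlap, and the fall was small, a log2 fold change of -0.12 (SE 0.04, limma adjusted p = 0.042). The call was lost in 9 of 17 alternative fits, including those without control replicate 2 (adjusted p = 0.096), control replicate 3 (0.17), knockdown replicate 1 (0.11) or knockdown replicate 3 (0.12) in limma. With library totals in place of the deposited scaling the adjusted p was 0.069 in limma. DEGS2, the paralog that also makes phytoceramide, had 0 reads in every library.

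Among the ceramide synthases, which differ in the length of the fatty acid they attach, CERS1 fell most. CERS1, which makes C18 ceramide and is best known from neurons and muscle, lies on the minus strand of chromosome 19 from 18979361 to 19007536 (hg19). It was at 7.43, 6.59 and 7.49 RPM in controls, from 253, 198 and 377 reads. In knockdowns it was at 1.70, 2.65 and 1.64 RPM, from 38, 62 and 46 reads. All 3 knockdown libraries lay far below the controls, at 27.8% of the control mean. This is a log2 fold change of -1.87 (SE 0.17, interval -2.25 to -1.48, limma adjusted p = 1.3e-05). In the 17 alternative fits it ran from -2.09 to -1.62, the smallest being the fit with the GC and length trend removed.

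GDF1, a growth factor of the TGF-beta family, is encoded on the same transcript unit as CERS1 and is listed at 0 reads in all 6 libraries. In GENCODE 29, all 2517 exon bases of GDF1 are also exon bases of CERS1, and CERS1 has 1236 of 3753 exon bases to itself. How reads that match more than 1 gene were counted is not given in the sources used here. The 0 of GDF1 is therefore no measure of its RNA, and RNA of the 2 genes cannot be told apart on the shared bases. RefSeq gives CERS1 and GDF1 a common start, and the 250 bases before it are shown because the largest fall among the members is at this locus (GRCh38.p14, chr19:18896159-18896408, minus strand, capitals mark GGGCGG or its reverse complement, the GC box).

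CERS1: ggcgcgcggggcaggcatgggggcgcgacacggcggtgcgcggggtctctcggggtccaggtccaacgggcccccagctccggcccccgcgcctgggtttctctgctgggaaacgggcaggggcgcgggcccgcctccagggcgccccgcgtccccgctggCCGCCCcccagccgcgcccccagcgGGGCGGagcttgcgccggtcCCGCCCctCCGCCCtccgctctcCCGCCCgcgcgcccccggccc

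This window held 83.6% G and C and 5 GC boxes. RefSeq lists a further CERS1 start upstream, whose window held 58.4% G and C, 0 GC boxes and 3 CCAAT boxes. The counts here are per gene and do not say which start was used.

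The other ceramide synthases moved far less. CERS2, the most abundant of them and the enzyme for very long chains, was at 79.9, 84.7 and 85.4 RPM in controls and 73.6, 73.4 and 73.1 in knockdowns. Controls were all above knockdowns, and the fall was small (log2 fold change -0.18, SE 0.05, limma adjusted p = 0.0078). CERS2 shares 948 of 4644 exon bases with SETDB1 on the opposite strand, at 20.1 RPM in controls and 24.8 in knockdowns. The part of SETDB1 reads in the CERS2 value was not tested. CERS4 (log2 fold change -0.38, limma adjusted p = 0.059) and CERS6 (-0.20, adjusted p = 0.062) did not pass, although their groups did not overlap. CERS4 passed in 4 of the 17 alternative fits and CERS6 in 3. CERS5, which makes C16 ceramide, had a log2 fold change of 0.05 (interval -0.06 to 0.16, limma).

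Per length, ceramide synthase RNA summed to 28.9, 29.7 and 30.6 RPKM in controls and 26.1, 26.3 and 25.4 in knockdowns. CERS1 made up 6.43% ± 0.47 of it in controls and 2.04% ± 0.55 in knockdowns, while CERS5 went from 22.9% ± 0.17 to 27.2% ± 0.21 (SD, n = 3). CERS2 was at 60.3% ± 1.0 and 60.9% ± 1.0, with overlapping libraries. The groups did not overlap for CERS1 and CERS5, and the exact permutation test gave p = 0.1 for both, the smallest that 3 libraries against 3 allow. Lengths here are all annotated exons of GENCODE 29. With the longest transcript instead, the share of CERS1 in controls was 5.14%, and the groups again did not overlap. The shares depend more on which CERS1 bases the reads came from. With all CERS1 reads divided by its 1236 own bases only, CERS1 was at 17.25% ± 1.1 in controls and 5.95% ± 1.5 in knockdowns (SD, n = 3). This takes every CERS1 read to lie on unshared bases, which the counts per gene do not show. CERS2 was then at 53.4% ± 1.3 and 58.5% ± 1.5, without overlap, and CERS5 at 20.3% ± 0.29 and 26.1% ± 0.29.

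**Figure D2:**
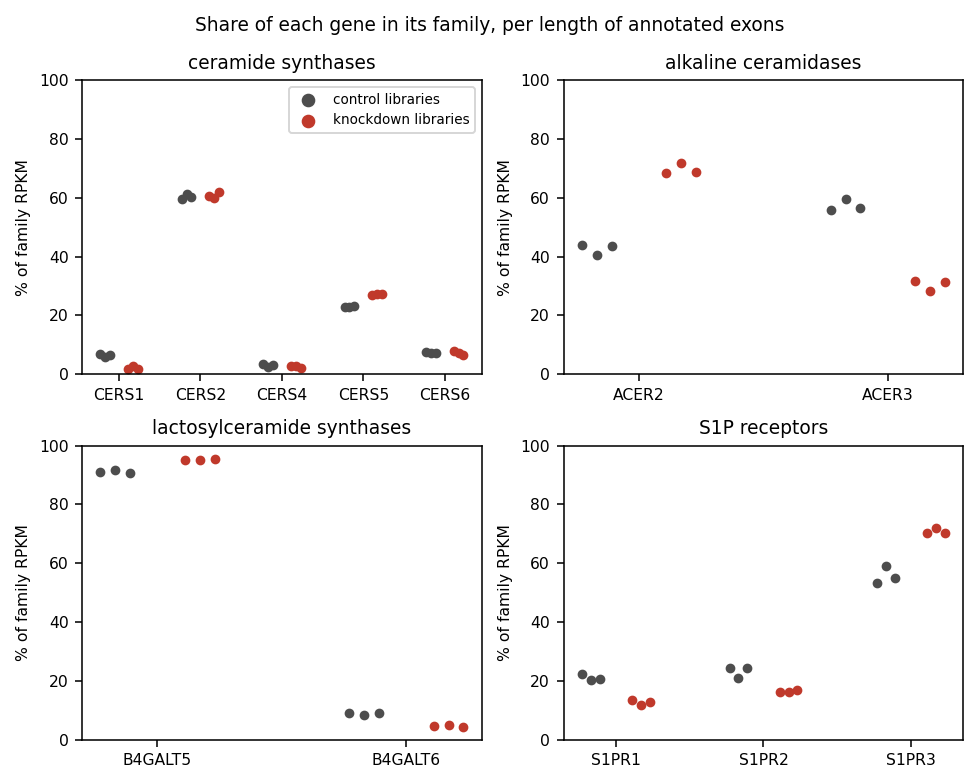
Share of each gene (percent, vertical axis) in the summed RPKM (all annotated exons) of 4 enzyme or receptor families, with a point for each library. In the alkaline ceramidase panel ACER2 goes from 42.7% on average in controls to 69.6% in knockdowns. In the receptor panel S1PR3 goes from 55.7% to 70.9%. The exon lengths used for S1PR1 and S1PR3 exceed their loci in the deposited table.

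In sphingomyelin metabolism, 1 of 4 tested genes changed. SMPD4, a neutral sphingomyelinase of the endoplasmic reticulum and nuclear envelope, was at 65.0, 66.2 and 64.5 RPM in controls and 45.7, 45.3 and 46.4 in knockdowns. Replicates were close together and the groups far apart (log2 fold change -0.51, SE 0.05, limma adjusted p = 9.9e-06). Its pseudogenes SMPD4P1 and SMPD4P2 had 0 reads in controls, and a split of reads between copies was not tested. SMPD4 shares 815 of 7375 exon bases with MZT2B on the opposite strand, whose mean also was lower in knockdowns (31.9 and 23.7 RPM). The part of MZT2B reads in the SMPD4 value was not tested. Both sphingomyelin synthases, which turn ceramide into sphingomyelin, were uncalled: SGMS1 of the Golgi at a log2 fold change of -0.06 and SGMS2, which also works at the plasma membrane, at 0.04 (limma adjusted p = 0.49 and 0.77). SGMS1 held 75.6% ± 1.7 of their summed RPKM in controls and 74.2% ± 2.0 in knockdowns (SD, n = 3). SMPD2, another neutral sphingomyelinase, had a log2 fold change of -0.28 (limma adjusted p = 0.096). SMPD3, a further one, had too few reads to test, with 12, 8 and 14 in controls and 1, 6 and 7 in knockdowns.

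Glycosphingolipid genes changed in both directions, with 1 of 4 tested genes higher and 2 lower. UGCG, which makes glucosylceramide and so commits ceramide to this branch, was at 38.2, 40.9 and 37.6 RPM in controls and 60.6, 59.2 and 58.5 in knockdowns. Every knockdown library was above every control, by 1.53-fold on average (log2 fold change 0.61, SE 0.05, limma adjusted p = 6.7e-06). The next enzyme adds galactose to make lactosylceramide and has 2 forms, B4GALT5 and B4GALT6. B4GALT6, the lesser form here, was at 7.84, 7.86 and 7.75 RPM in controls and 4.71, 4.27 and 4.13 in knockdowns, on 100 to 116 reads per knockdown library. Its log2 fold change was -0.84 (SE 0.09, limma adjusted p = 5.0e-05). B4GALT5 had overlapping groups and a log2 fold change of 0.14 (limma adjusted p = 0.10), and passed without control replicate 2 (0.19, adjusted p = 0.033) or knockdown replicate 2 (0.19, adjusted p = 0.039). Per length, B4GALT5 made up 91.1% ± 0.4 of the pair in controls and 95.3% ± 0.3 in knockdowns, and their sum overlapped between groups (15.9 to 17.6 and 16.2 to 18.6 RPKM).

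ST3GAL5, which adds sialic acid to lactosylceramide to make the ganglioside GM3, was at 34.5, 33.9 and 33.4 RPM in controls and 28.9, 28.9 and 26.0 in knockdowns. The groups did not overlap, and the log2 fold change was -0.28 (SE 0.06, limma adjusted p = 0.0034). UGT8, which makes galactosylceramide and is best known from myelin, had at most 1 read in a library.

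**Figure D3:**
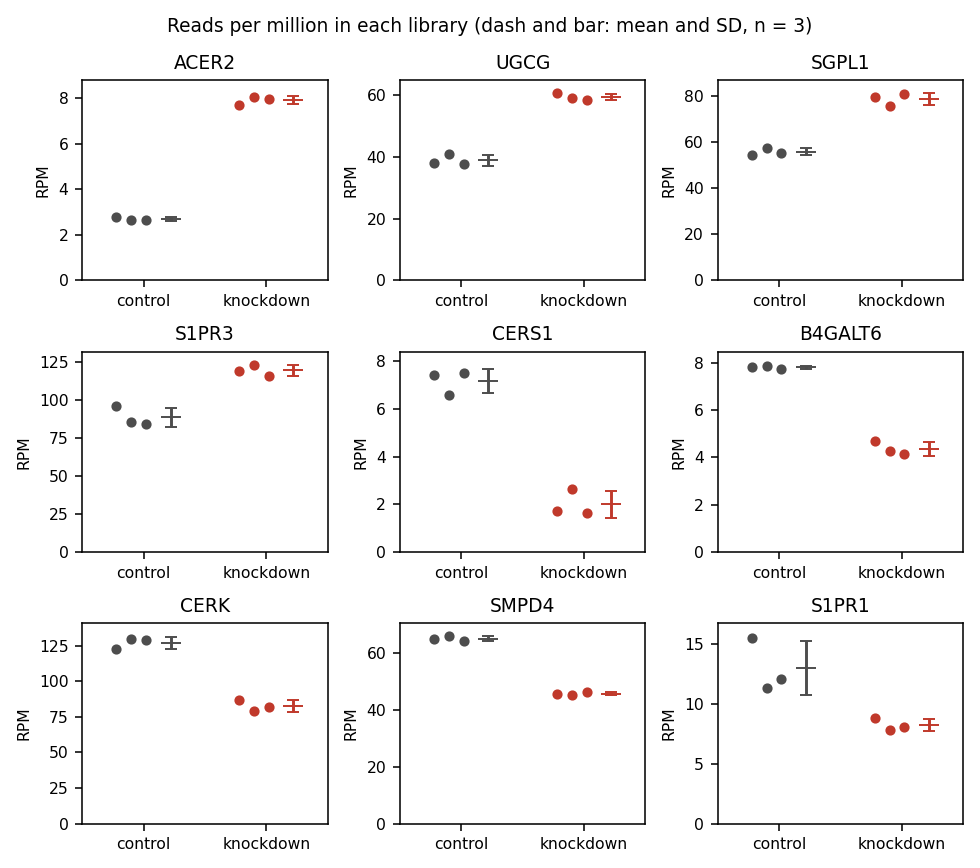
RPM (vertical axis, from 0) in each of the 6 libraries for 9 called members, with the mean and SD of each group (n = 3). ACER2 goes from about 2.69 to 7.91 RPM and CERS1 from 7.17 to 2.00, and in all 9 panels the groups do not overlap.

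Of the 3 genes for ceramide kinase and the ceramidases, 1 rose, 1 fell and 1 was uncalled. ACER2, a ceramidase of the Golgi that frees sphingosine from ceramide, had the largest rise of the members. Its locus is chr9:19408925-19452018 (hg19, plus strand). Controls were at 2.79, 2.63 and 2.64 RPM and knockdowns at 7.71, 8.07 and 7.94, on 79 to 133 and 172 to 223 reads. Knockdowns were 2.94-fold higher, with little spread in either group. The log2 fold change was 1.55 (SE 0.10, interval 1.34 to 1.77, limma adjusted p = 9.5e-07), and its lowest value in the 17 alternative fits was 1.42, with libraries thinned to the smallest total. ACER3, the related ceramidase with a wider tissue range, had overlapping groups and a log2 fold change of -0.07 (limma adjusted p = 0.55), which became -0.21 with the GC and length trend removed (adjusted p = 0.025). ACER2 thus held 42.7% ± 1.9 of the pair's RPKM in controls and 69.6% ± 1.9 in knockdowns (SD, n = 3).

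CERK, which phosphorylates ceramide to ceramide 1-phosphate, fell. It was at 122.2, 129.9 and 128.9 RPM in controls and 86.9, 78.9 and 81.9 in knockdowns. The groups were well apart, with knockdowns at 65.0% of the control mean (log2 fold change -0.62, SE 0.05, limma adjusted p = 4.8e-06). By length of all annotated exons, CERK was at 25.7 ± 0.8 RPKM in controls (SD, n = 3), and of all members only DEGS1 was higher. This rank depends on the length used, and it was not tested with the longest transcripts.

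The windows of the members that rose by at least 0.5, ACER2 and UGCG, are shown to set beside the CERS1 window. Both are from RefSeq, GRCh38.p14, the plus strand and the 250 bases before the start, at chr9:19408759-19409008 for ACER2 and chr9:111896564-111896813 for UGCG. Capitals again mark GC boxes.

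ACER2: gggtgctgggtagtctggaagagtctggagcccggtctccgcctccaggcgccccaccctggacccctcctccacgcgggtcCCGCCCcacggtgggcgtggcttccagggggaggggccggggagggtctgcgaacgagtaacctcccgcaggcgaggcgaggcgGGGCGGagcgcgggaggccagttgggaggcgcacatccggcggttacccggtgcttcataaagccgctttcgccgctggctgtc

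UGCG: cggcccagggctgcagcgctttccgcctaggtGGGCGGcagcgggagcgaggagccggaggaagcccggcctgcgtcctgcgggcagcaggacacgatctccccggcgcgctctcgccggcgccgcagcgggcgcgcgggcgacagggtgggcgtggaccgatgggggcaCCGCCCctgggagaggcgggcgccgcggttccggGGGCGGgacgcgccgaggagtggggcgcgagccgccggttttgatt

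These windows held 72.4% and 78.4% G and C, with 2 and 3 GC boxes. S1PR1, which fell, is shown as the 1 matched member whose window had no GC box (GRCh38.p14, chr1:101236769-101237018, plus strand). Its capitals mark the reverse complement of CCAAT.

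S1PR1: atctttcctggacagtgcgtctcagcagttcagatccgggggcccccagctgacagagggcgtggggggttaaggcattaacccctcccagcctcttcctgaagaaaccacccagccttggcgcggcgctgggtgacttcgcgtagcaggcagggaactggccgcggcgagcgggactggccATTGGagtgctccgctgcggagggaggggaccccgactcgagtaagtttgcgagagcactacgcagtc

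Of the 36 members, 29 had at least 1 entry in the RefSeq promoter table, with 48 entries in all. Each window of 250 bases was searched on both strands for the GC box GGGCGG, the CCAAT box, the TATA box TATAAA, the E-box CACGTG, the AP-1 site TGANTCA and the sterol element TCACNCCAC. None of these words contains another. GC boxes were in 75.0% of the members' windows, beside 53.7% of the 22199 windows of protein-coding genes and 42.6% of all 35116. The members' windows were also richer in G and C, at a median of 68.6% beside 62% for protein-coding genes and 58% for all. CCAAT was in 27.1% of the members' windows and in 32.7% of those of protein-coding genes. TATAAA and CACGTG were each in 1 of the 48 windows, the first in SGMS2 and the second in UGT8, and TCACNCCAC was in 0. TGANTCA was in 4 windows, of SGMS2, SGPP2 and SPHK1. Windows of genes that rose and of genes that fell both held GC boxes.

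In S1P metabolism, 1 of 4 tested genes changed. SGPL1, the lyase that removes S1P irreversibly, was at 54.5, 57.5 and 55.3 RPM in controls and 79.8, 75.9 and 80.7 in knockdowns. All knockdown libraries were above all controls, by 1.41-fold on average (log2 fold change 0.50, SE 0.05, limma adjusted p = 1.7e-05). SPHK1, the more abundant per length of the kinases that make S1P, was at 71.5, 65.6 and 75.6 RPM in controls and 66.9, 84.3 and 76.4 in knockdowns. The groups overlapped, with a log2 fold change of 0.09 (interval -0.08 to 0.27, limma adjusted p = 0.39). SPHK1 passed in 1 of the 17 alternative fits, with the GC and length trend removed (0.27, adjusted p = 0.0026 in limma). SPHK2, the form also found in nucleus and mitochondria, had a log2 fold change of -0.06 (interval -0.35 to 0.24). It shares 246 of 6009 exon bases with the ribosomal protein gene RPL18 on the opposite strand, at 347.9 RPM in controls and 280.2 in knockdowns, so its value of 18.5 RPM in controls is uncertain. SPHK1 held 84.0% ± 1.8 of the kinases' RPKM in controls and 85.4% ± 0.6 in knockdowns (SD, n = 3).

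The S1P phosphatases return S1P to sphingosine. SGPP1 had overlapping groups and a log2 fold change of 0.03 (interval -0.16 to 0.22, limma adjusted p = 0.82). SGPP2 had 5, 10 and 11 reads in controls and 2, 1 and 8 in knockdowns and was not tested.

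The 3 S1P receptors among the members changed, 1 upward and 2 downward. Of the other receptors, S1PR5 was not called (log2 fold change -0.21, interval -1.01 to 0.59, limma adjusted p = 0.68), and S1PR4 had at most 2 reads in a library and was not tested. S1PR3, which couples to several G proteins, was the most abundant, at 96.1, 86.0 and 84.1 RPM in controls and 119.5, 123.6 and 116.1 in knockdowns. Its log2 fold change was 0.43 (SE 0.06, limma adjusted p = 0.00013). S1PR1, the Gi-coupled receptor best known from endothelium and lymphocytes, was at 15.6, 11.3 and 12.1 RPM in controls and 8.83, 7.81 and 8.12 in knockdowns. Controls spread more than knockdowns, and the lowest control was still above the highest knockdown. The log2 fold change was -0.64 (SE 0.11, limma adjusted p = 0.0012).

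S1PR2, another receptor for S1P, was at 11.9, 8.16 and 9.95 RPM in controls and 7.40, 7.43 and 7.52 in knockdowns. The gap between the lowest control and the highest knockdown was small. Its log2 fold change of -0.41 (SE 0.12, limma adjusted p = 0.020) lost the call in 4 of the 17 alternative fits. Without control replicate 1 it was -0.27 (limma adjusted p = 0.064), without control replicate 3 it was -0.40 (0.064) and without knockdown replicate 3 it was -0.41 (0.056). With no intensity trend the adjusted p was 0.067 in limma. S1PR2 shares 83 of 3643 exon bases with DNMT1 on the same strand, at 98.5 RPM in controls and 86.7 in knockdowns. The part of DNMT1 reads in the S1PR2 value was not tested.

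Receptor RNA per length summed to 10.7 to 13.3 RPKM in controls and 12.2 to 12.6 in knockdowns, which overlap. Within that sum, S1PR3 was 55.7% ± 3.0 in controls and 70.9% ± 1.0 in knockdowns, S1PR1 21.1% ± 1.2 and 12.7% ± 0.8, and S1PR2 23.2% ± 2.0 and 16.4% ± 0.45 (SD, n = 3). The groups did not overlap for any of these 3 shares. The order of S1PR1 and S1PR2 depends on the length used: by longest transcript their shares in controls were 25.2% and 15.5%. S1PR3 was then at 59.3% in controls and 74.2% in knockdowns. The GENCODE 29 exon lengths of S1PR1 (5223 bases) and S1PR3 (13578 bases) exceed their whole loci in the deposited table. These loci are chr1:101702444-101707074 and chr9:91606362-91619925 (hg19). Their RPKM, and the sum and shares above, thus divide by some bases that were not counted. As S1PR1 is also an endothelial gene, the endothelial markers were read beside it. Of 3 such markers 2 were found. VWF was at 1.67 to 1.83 RPM in controls and 2.20 to 2.60 in knockdowns, and CDH5 had 0 reads in 5 of the 6 libraries. A part of endothelial cells in the S1PR1 result was not tested.

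Other genes of the pathway, 48 that are not members, were read in the same fit. Of 38 tested, 18 changed (8 higher, 10 lower), or 47.4%, again beside 41.0% of all genes and 48.6% of protein-coding genes. Their median log2 fold change was -0.02. The largest fall was that of MFSD2B, an S1P exporter best known from red cells and platelets, at 33.1 ± 1.0 RPM in controls and 15.3 ± 1.3 in knockdowns (SD, n = 3). The knockdown mean was 46.1% of the control mean (log2 fold change -1.12, SE 0.07, limma adjusted p = 1.1e-06). MFSD2B shares 464 of 4438 exon bases with FKBP1B on the same strand, at 3.16 and 2.48 RPM. NAAA, an acid amidase that also acts on ceramide, and A4GALT, which makes globotriaosylceramide, fell by 0.57 and 0.47 on the log2 scale (limma adjusted p = 0.00022 and 0.0078).

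The largest rises were those of CERKL, PLEKHA8 and ASAH1. CERKL, a relative of CERK without shown ceramide kinase activity, was at 6.99 ± 0.66 RPM in controls and 11.4 ± 1.1 in knockdowns (log2 fold change 0.70, limma adjusted p = 0.00026). PLEKHA8, which carries glucosylceramide onward for glycosphingolipid synthesis, was at 29.8 ± 1.1 RPM in controls and 47.6 ± 0.79 in knockdowns (log2 fold change 0.68, limma adjusted p = 3.5e-06). Its pseudogene PLEKHA8P1 was at 7.32 RPM in controls, and a split of reads between the copies was not tested. ASAH1, the lysosomal acid ceramidase, was at 53.2, 57.2 and 55.2 RPM in controls and 80.5, 87.8 and 79.5 in knockdowns. Its log2 fold change was 0.58 (SE 0.05, limma adjusted p = 1.3e-05).

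By role, 6 of the 12 lysosomal genes changed, 5 of them upward. That is 50% of them, close to the 48.6% of protein-coding genes called, and over all genes 17.5% were called higher and 23.5% lower. Beside ASAH1 these included GLB1, HEXA and PSAP, with log2 fold changes of 0.47, 0.27 and 0.27, and GM2A, an activator protein, at -0.25, all named after their values were seen. SMPD1, the acid sphingomyelinase, had a log2 fold change of 0.08 and did not pass (limma adjusted p = 0.26). Of the 8 tested genes listed with S1P export, receptors and removal, MFSD2B, PPAP2B and PPAP2C fell and CERKL, which was listed there but is not known for these roles, rose. Of the 7 tested transferases for complex glycosphingolipids, 1 fell and 0 rose. Among 3 tested genes of synthesis, ELOVL1, which makes very long fatty acids, and SAMD8, a ceramide phosphoethanolamine synthase, fell by 0.43 and 0.25 on the log2 scale (limma adjusted p = 1.5e-05 and 0.00095), also named after their values were seen.

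**Figure D4:**
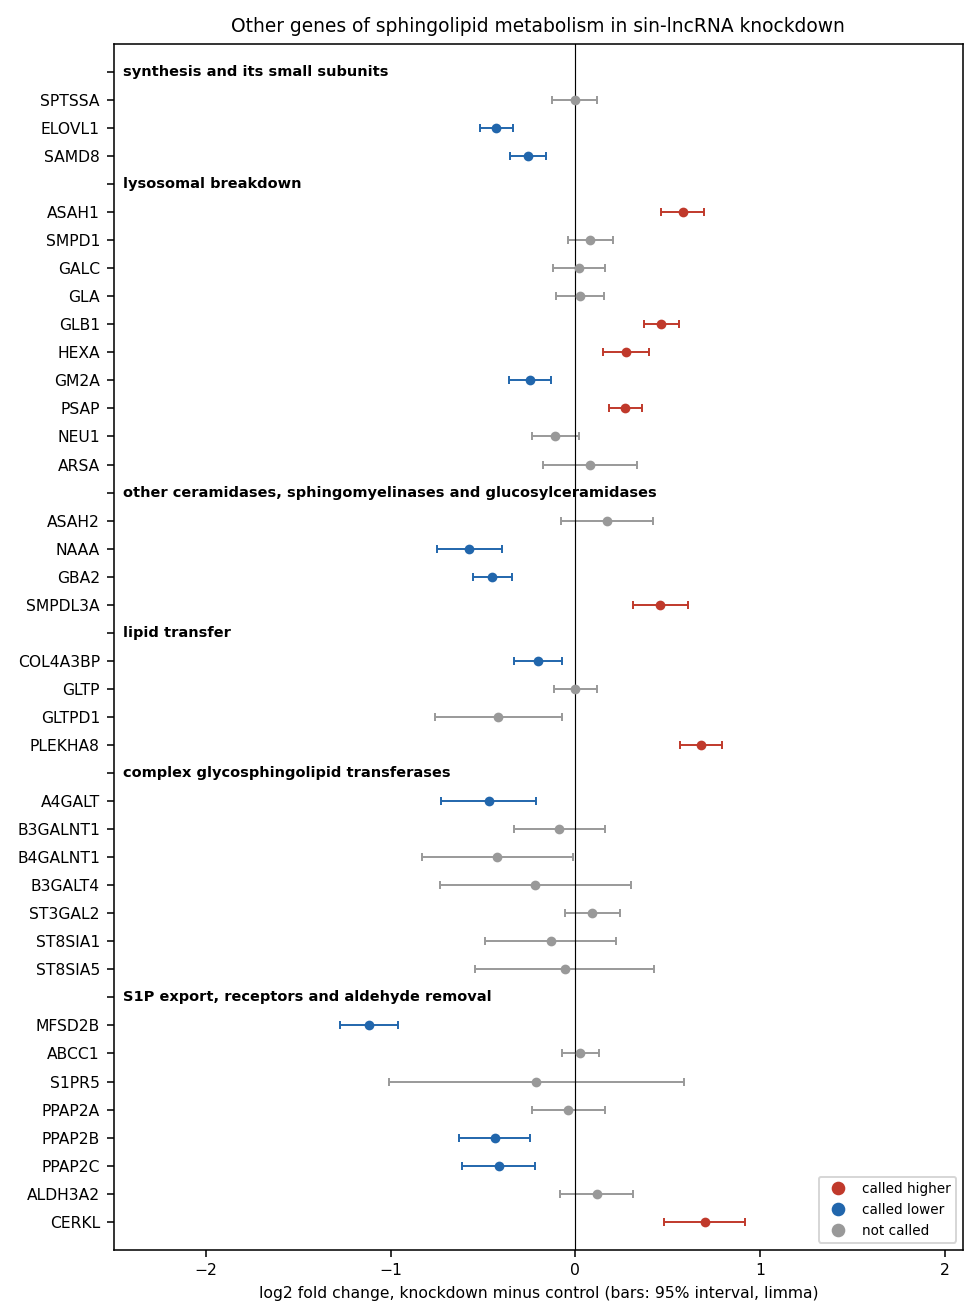
Log2 fold change (knockdown minus control, horizontal axis) of 36 of the 38 tested genes of the pathway that are not members, by role, with 95% intervals from limma. MFSD2B at -1.12 lies farthest from 0 among the genes drawn, and CERKL at 0.70 is the highest.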

How the data were processed

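PolyA RNA of 6 libraries was read as single 50 bp reads, per the labels' protocols. Per the submitters' processing notes, Bowtie2, featureCounts and hg19 were used. Versions, annotation release and strand setting are not given in the sources used here. The authors deposited log2 values. They are log2 of reads plus 0.5, scaled to an effective library size (0.989 to 1.009 times the total): taking both away left whole reads, within 0.01, for 100% of values.

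Groups and replicate numbers came from sample titles. Limma 3.58.1 (R 4.3.3; lmFit, eBayes with an intensity trend, two-sided) was run on the deposited log2 values of the 19048 genes with a mean of at least 10 normalized reads. P-values were adjusted over all of them (Benjamini-Hochberg), and a gene was called under 0.05. The offset understates changes of genes with few reads. Intervals are 95% from limma. RPKM used exon lengths of GENCODE 29, and overlaps counted its exon bases. For S1PR1 and S1PR3 these lengths exceed the locus in the deposited table. The fit was tried on simulated data with far fewer changed genes and a fixed spread, which cannot give error rates for these data. Members, lists and roles were chosen with earlier results of these data known. Named genes are the members, the 3 largest called changes in each direction of the other 48 genes, and the target. Further genes of the 48 were named after their values were seen. Values per library were planned for members changed by at least 0.5, and others were added after their values were seen. The 17 alternative fits changed offset (1 or 5 reads), filter (none or 50), scaling (library totals, quantile), variance model (voom, no trend), replicate block and the libraries used. Thinning to the smallest total and removal of the GC and length trend were chosen after seeing the data, as were ceramide synthase shares by the bases CERS1 does not share. Values of some single genes of the wider pathway are not reported here.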

Additional observations from a re-analysis of the deposited data

How the results depend on the processing

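The counts of changed genes, changed members and changed genes of the rest of the pathway stayed within 1.5 times in all 17 alternative fits, as did those of members higher and lower, and the target kept its direction and call. With a library left out, 11 to 14 members were called, and after thinning to equal totals, 13. Of the 13 called members, 11 kept their call in all 17 fits, DEGS1 and S1PR2 lost it in some, and 0 changed sign. For libraries of equal replicate number, deviations from the group mean had correlations of -0.15, -0.18 and 0.07. With 3 libraries per group such deviations are tied to each other, so the correlations cannot exclude pairing. Pairs of unequal numbers ran from -0.076 to 0.20. The highest were control replicate 2 with knockdown replicate 1 (0.20) and control replicate 1 with knockdown replicate 2 (0.17). A block by such pairs was not tested. With the replicate number as a block 12 members were called, without DEGS1. Another 7 members gained a call in at least 1 fit, namely ACER3, B4GALT5, CERS4, CERS6, ORMDL3, SPHK1 and SPTLC2. Of the members with no call, 8 had the opposite sign in at least 1. SPTLC1 was at a log2 fold change of 0.011 with library totals, 0.038 with quantile normalization and -0.048 to 0.019 with a library left out. ORMDL2 was at 0.0059 with quantile normalization. With a library left out, KDSR ran from -0.025 to 0.085, SGMS2 from -0.017 to 0.13, SPHK2 from -0.19 to 0.069 and SGPP1 from -0.022 to 0.11. After removal of the GC and length trend, SPTLC2 was at -0.014, ORMDL1 at -0.052, KDSR at -0.066, SGMS2 at -0.10, SPHK2 at 0.080 and SGPP1 at -0.048, and SGMS2 was at -0.023 after thinning. The cause was not tested. Depth limits SMPD3, SGPP2, UGT8 and SPTLC3, with under 30 reads in a library.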
